A study of Mus musculus with 15 samples.

Results

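The genes described here are *Crx*, *Otx1*, and *Otx2*, which encode the Otx-class homeobox transcription factors, and *Tph1*, which encodes the form of tryptophan hydroxylase used in the pineal gland. They are 4 of the 19475 genes in the data, and all 4 passed the filter on low values (a mean of at least 5 normalized counts over the embryos). They were selected from earlier results on these same embryos, above all the higher level of *Crx* in *Tbr1*+/K228E mice, so that the difference between *Tbr1*+/K228E and WT mice is described here without a test.

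RNA-Seq was carried out on the brains of 15 mouse embryos at E16.5, with 5 embryos per genotype (WT mice, *Tbr1*+/K228E mice, called heterozygous from here on, and *Tbr1* K228E/K228E mice, called homozygous). Every embryo was C57BL/6J, and each genotype comprised 3 females (replicates 1 to 3) and 2 males (replicates 4 and 5). The mutants carry 1 or 2 copies of a knock-in allele of *Tbr1*, a T-box transcription factor gene of cortical neurons, in which K228E replaces a lysine by a glutamate in the DNA-binding domain. The allele is present in all cells from conception, its neomycin cassette was removed with protamine-Cre, and no cell type-restricted driver was used. WT embryos carry no mutant copy. The deposited description names the whole brain, whereas the text of the study names the forebrain.

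Homeobox factors of the Otx class bind DNA through a homeodomain whose recognition helix carries a lysine, and this lysine favors sites with the core GGATTA. *Otx2* is required to form the forebrain and midbrain and later marks the midbrain, the choroid plexus, the retina, and the pineal gland, *Otx1* is expressed in the cortical ventricular zone and in deep-layer cortical neurons, and *Crx* is active in photoreceptors and pinealocytes, the melatonin-producing cells of the pineal gland. Tryptophan hydroxylase carries out the first, rate-limiting step from tryptophan to serotonin, which pinealocytes acetylate and methylate into melatonin.

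The recognition helix is shown first because it is what the Otx factors share. Each line gives 42 bases of coding sequence from the GENCODE M21 transcripts (GRCm38), read 5′ to 3′ on the coding strand, and the capitals mark the lysine codon.
Crx: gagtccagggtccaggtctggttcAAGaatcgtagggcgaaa
Otx1: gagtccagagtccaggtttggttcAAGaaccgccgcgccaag
Otx2: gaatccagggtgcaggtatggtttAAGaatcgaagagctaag
Over the 180 bases of the homeobox, *Otx1* and *Otx2* were identical at 80.0% of bases and at 59 of the 60 encoded residues. *Crx* shared 75.0% of bases and 53 residues with *Otx1*, and 73.3% of bases and 52 residues with *Otx2*. No stretch of 31 bases was common to any pair of these transcripts, and reads could share shorter runs.

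The sequences upstream of *Crx* and *Tph1* are shown because these 2 genes were high in the same embryos. They come from the RefSeq promoter windows on GRCm38.p6, cut so that they end at the last base before the annotated gene, and are written 5′ to 3′ on the minus strand on which both genes lie. Capitals mark GGATTA, the core of the Otx-class site, which was searched on both strands (as GGATTA or TAATCC). The window of *Crx* is chr7:15879969-15880205 and that of *Tph1* is chr7:46672538-46672787.
Crx: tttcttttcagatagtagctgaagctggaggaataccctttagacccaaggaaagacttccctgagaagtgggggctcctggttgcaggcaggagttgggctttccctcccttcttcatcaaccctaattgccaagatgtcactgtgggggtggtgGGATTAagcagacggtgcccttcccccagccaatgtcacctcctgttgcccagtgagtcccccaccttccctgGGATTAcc
Tph1: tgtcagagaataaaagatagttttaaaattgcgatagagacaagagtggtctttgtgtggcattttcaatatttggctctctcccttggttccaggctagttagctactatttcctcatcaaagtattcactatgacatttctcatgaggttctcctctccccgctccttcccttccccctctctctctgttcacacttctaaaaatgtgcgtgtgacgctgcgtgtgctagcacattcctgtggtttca
The *Crx* window held 2 matches, which began 94 and 21 bases before the RefSeq start. At least 1 match occurred in 7.06% and at least 2 in 0.359% of all 32851 windows of 300 bases. Neither of the 2 windows of *Tph1* held a match, and 1 of the 4 windows of *Otx2* held 1. A match is a run of letters and not a shown binding site.

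*Crx* (ENSMUSG00000041578) spans 15865947 to 15879968 on chromosome 7 of GRCm38, and *Tph1* (ENSMUSG00000040046) spans 46644641 to 46672537 on the same chromosome. *Otx1* (ENSMUSG00000005917) spans 21994764 to 22002897 on chromosome 11. *Otx2* (ENSMUSG00000021848) spans 48657677 to 48673819 on chromosome 14, and all 4 genes lie on the minus strand. The antisense gene *Otx2os1* shares 154 exonic bases (3.648% of the exonic length) with *Otx2*, and *Gm49154*, which GENCODE lists as TEC (awaiting experimental evidence), shares 168 bases (3.98%) on the same strand. The library kit does not mark strand, so reads of *Otx2* and *Otx2os1* in that stretch cannot be told apart.

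The values are read counts per gene that the authors divided by a size factor for each embryo. Their sums were 30.54 to 31.77 M (mega) per embryo because of that scaling, and 1 read was worth about 0.81 to 1.19 normalized counts. The values of *Crx* and *Tph1* outside a few embryos therefore stand for a handful of reads. *Tbr1* measured 3537 ± 1049 in WT, 6269 ± 1532 in heterozygous, and 11366 ± 3160 in homozygous mice (mean ± SD, n = 5 each). The paper reports higher *Tbr1* in homozygous mice from these same libraries. The ranges were 2097 to 4871 in WT, 4738 to 8543 in heterozygous, and 7148 to 16015 in homozygous mice. The heterozygous range overlapped each of the others, whereas every homozygous embryo lay above every WT embryo. These values therefore set homozygous apart from WT embryos, but do not tell either from all heterozygous embryos. Markers of other brain regions varied within each genotype. The summed normalized count of 15 hindbrain Hox genes was under 20 in 8 of the 15 embryos and reached 3952 in another. The summed count of 13 midbrain genes ranged from 185 to 7758, and that of 13 choroid plexus genes from 431 to 25422. In tissue RNA of this kind, fewer cells of a type and less RNA per cell cannot be told apart.

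Per kilobase of exon, the mean level over WT embryos was 215 normalized counts for *Otx2*, 93.1 for *Otx1*, 1.58 for *Crx*, and 0.818 for *Tph1*. *Otx2* and *Otx1* were thus well expressed, and the pineal genes were near the limit of detection. The order was the same in heterozygous mice, at 198, 99.4, 6.98, and 3.94, and in homozygous mice, at 217, 100.6, 2.97, and 1.18.

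*Crx*, which controls photoreceptor and pinealocyte genes, had a mean normalized count of 22.0 ± 18.4 (SD, n = 5) in heterozygous mice, against 5.00 ± 2.00 (SD, n = 5) in WT mice. The heterozygous embryos measured 10.4, 40.5, 43.8, 8.29, and 7.31 for replicates 1 to 5, and the WT embryos 6.21, 7.38, 5.36, 2.33, and 3.74. Heterozygous replicates 2 and 3, both female, lay far above all other embryos, whereas the remaining 3 lay near or above the top of the WT range, and 1 of them fell below the highest WT embryo. The mean of heterozygous mice was 4.41 times that of WT mice, but the median was 1.94 times as high. The difference on the log2(normalized count + 1) scale was 1.61 (SE 0.47), and 0.75 (SE 0.34) without replicates 2 and 3. By size of this difference *Crx* ranked 15 of the 16507 genes tested. Because *Crx* was selected for its higher level in these heterozygous embryos, the rank is not independent of that choice. The paper, which used DESeq2 with a further correction of the p-values, reported *Crx* as upregulated in heterozygous mice. That method differs from the one used here. The paper also states that qRT-PCR did not bear out its heterozygous genes, although the directions of change were similar.

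In homozygous mice, *Crx* measured 11.9, 9.84, 9.03, 9.45, and 6.70, a mean of 9.38 ± 1.86 (SD, n = 5). The 5 embryos lay close together, and 4 of them exceeded every WT embryo. The log2 difference from WT mice was 0.84 (SE 0.47, 95% interval -0.15 to 1.83), with a two-sided exact permutation p of 0.0159 for *Crx* alone. With Benjamini–Hochberg correction across the tested genes it did not pass (limma, adjusted p = 1.0). The SE and interval draw on the spread of all 15 embryos, the heterozygous ones included. A fit of WT and homozygous embryos alone gave the same difference with an SE of 0.31, and it did not pass there either. The same WT embryos entered the difference that selected *Crx*, so the homozygous embryos are the new part of this comparison. Low WT values favor both differences, so the permutation p is not that of a gene chosen without these embryos. The levels of homozygous and heterozygous mice overlapped, with the mean of the former at 0.426 times that of the latter and the medians at 9.45 and 10.4.

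*Tph1* was 24.3 ± 22.1 (SD, n = 5) in heterozygous mice and 5.05 ± 5.28 (SD, n = 5) in WT mice. The values for replicates 1 to 5 were 6.08, 55.1, 40.4, 11.2, and 8.95 in heterozygous and 2.38, 4.91, 14.2, 1.69, and 2.03 in WT mice. The highest were again heterozygous replicates 2 and 3, and WT replicate 3 exceeded the other 3 heterozygous embryos. The log2 difference was 1.93 (SE 0.69), which ranked 9 of all tested genes, and 0.99 (SE 0.68) without replicates 2 and 3. The heterozygous values took part in the selection of *Tph1* too, so its rank is not independent of that choice. The ratio of medians was 4.68.

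In homozygous mice, *Tph1* measured 18.6, 1.96, 9.66, 4.01, and 2.24, a mean of 7.29 ± 7.03 (SD, n = 5). Apart from replicate 1 these values lay within the WT range. The log2 difference from WT mice was 0.40 (SE 0.69, 95% interval -1.06 to 1.86), with a two-sided exact permutation p of 0.563 and an adjusted p of 1.0 (limma, Benjamini–Hochberg). The difference was -0.0055 without homozygous replicate 1, and the interval leaves room for a change of either sign. Between homozygous and heterozygous mice the log2 difference was -1.53, given without a test because the heterozygous values took part in the selection.

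**Figure D1:**
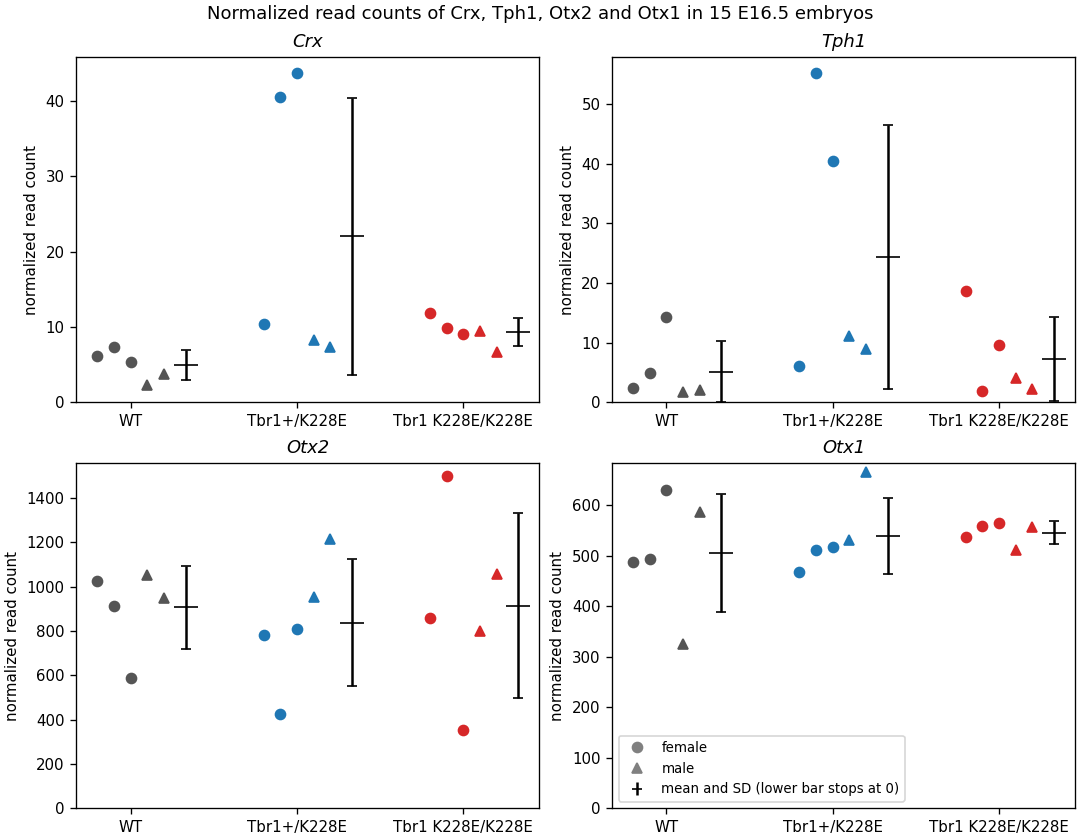
Normalized read count (y axis, linear from 0) of *Crx*, *Tph1*, *Otx2*, and *Otx1* in the 5 embryos of each genotype (x axis), with circles for females, triangles for males, and a cross-bar for the mean with its SD. *Crx* and *Tph1* each show 2 heterozygous females at 40.4 or above and all other embryos at 18.6 or below, whereas the genotypes overlap throughout for *Otx2* and *Otx1*.

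The genotypes overlapped for *Otx2*, the gene with the highest level of the 4. The WT embryos measured 1024, 913, 588, 1055, and 950, the heterozygous embryos 783, 427, 808, 953, and 1215, and the homozygous embryos 860, 1500, 353, 799, and 1059. The lowest embryos were spread over the genotypes (WT replicate 3, heterozygous replicate 2, and homozygous replicate 3), all of them female. The means were 906 ± 187, 837 ± 286, and 914 ± 417 (SD, n = 5 each). The log2 difference of homozygous from WT mice was -0.10 (SE 0.33, 95% interval -0.80 to 0.60), with a two-sided exact permutation p of 0.786, and its direction turned to 0.20 without homozygous replicate 3. The log2 difference of heterozygous from WT mice was -0.16 (SE 0.33), and 0.06 without heterozygous replicate 2.

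*Otx1* also overlapped between the genotypes. The WT embryos measured 488, 493, 629, 326, and 587, the heterozygous embryos 468, 511, 518, 531, and 667, and the homozygous embryos 536, 558, 566, 511, and 558. WT replicate 4 was the lowest of all embryos, and the homozygous embryos lay in a narrow band inside the WT range. The means were 505 ± 117, 539 ± 75.2, and 546 ± 22.4 (SD, n = 5 each). The log2 difference of homozygous from WT mice was 0.15 (SE 0.14, 95% interval -0.15 to 0.45), with a two-sided exact permutation p of 0.516, and it fell to -0.0021 without WT replicate 4. The log2 difference of heterozygous from WT mice was 0.12 (SE 0.14).

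**Figure D2:**
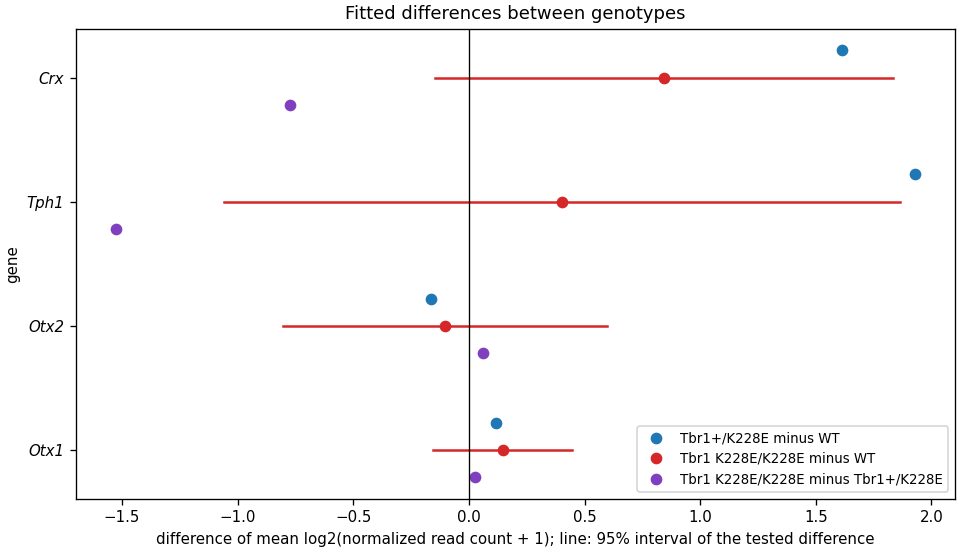
Differences of the mean log2(normalized count + 1) between genotypes (x axis) for the 4 genes (y axis), as points in a color for each pair of genotypes, with a line for the 95% interval of the tested difference of homozygous from WT mice. All 4 intervals, which draw on the spread of all 15 embryos, include 0. The largest untested differences are those of *Tph1* (1.93) and *Crx* (1.61) in heterozygous relative to WT mice.

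None of the 4 genes had an adjusted p under 0.05 in homozygous compared with WT mice, where 0.127% of all tested genes passed (21 of 16507, limma with Benjamini–Hochberg correction). None was without overlap between these genotypes either, as 0.594% of all genes were. For *Crx* the overlap was between a homozygous male (6.70) and a WT female (7.38). Homozygous females measured 9.03 to 11.9 against 5.36 to 7.38 in WT females, and males 6.70 to 9.45 against 2.33 to 3.74. The heterozygous ranges were 10.4 to 43.8 in females and 7.31 to 8.29 in males. With 3 females and 2 males per genotype, the share of all genes separated within each sex was not computed. These ranges are therefore a description only. The heterozygous and WT values also took part in the selection of *Crx*. Between heterozygous and WT mice, 0.0% of all genes passed the adjusted threshold with limma (0 genes, smallest adjusted p = 0.999, against 295 genes at an unadjusted p under 0.05), and 0.26% did not overlap. Between the mutant genotypes these shares were 0.0788% and 0.878%, and the 4 genes overlapped in both of these comparisons too. The smallest p that the exact permutation test of 5 against 5 embryos can give is 0.00794. A difference of effect between females and males did not pass for any of the 4 genes in homozygous compared with WT mice (limma, adjusted p of the interaction 0.883 to 0.997).

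*Crx* and *Tph1* moved together from embryo to embryo. Their log2 values correlated with r = 0.81 (Spearman's rho 0.61) over the 15 embryos, and *Tph1* was the gene most like *Crx* of all tested genes. Without heterozygous replicates 2 and 3, r was 0.49 (rho 0.41) over 13 embryos. The points share libraries and scaling, and the coefficients are given as a description. With all genes examined after the values were seen, *Crx* and *Tph1* were the only 2 of 16507 that were at least 2-fold above every other embryo in both heterozygous replicates 2 and 3. The heterozygous values also took part in the selection of these genes, so neither this count nor r is independent of that choice. The lower of the 2 high embryos was 3.40 times the highest other embryo for *Crx* and 2.17 times for *Tph1*.

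Other genes of pinealocytes and photoreceptors were compared with this pattern. *Rbp3*, a retinoid-binding protein gene of photoreceptors and pinealocytes that was singled out after its values were seen, measured 15.9 and 21.1 in these 2 embryos and 0.0 to 10.3 in the other 13. With a mean of 1.77 in WT and 3.98 in homozygous mice, *Rbp3* passed the filter at a mean of 5 only through these 2 embryos. Its r with *Crx* was 0.69, and 0.25 without the 2 embryos. *Aanat*, which encodes the enzyme that acetylates serotonin and was also singled out afterwards, measured 27.3 and 27.6 in the same embryos, but it reached 30.4 in heterozygous replicate 5 and 32.7 in homozygous replicate 2. Its r with *Crx* was 0.31. *Asmt*, which encodes the last enzyme of melatonin synthesis, was not analysed here.

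**Figure D3:**
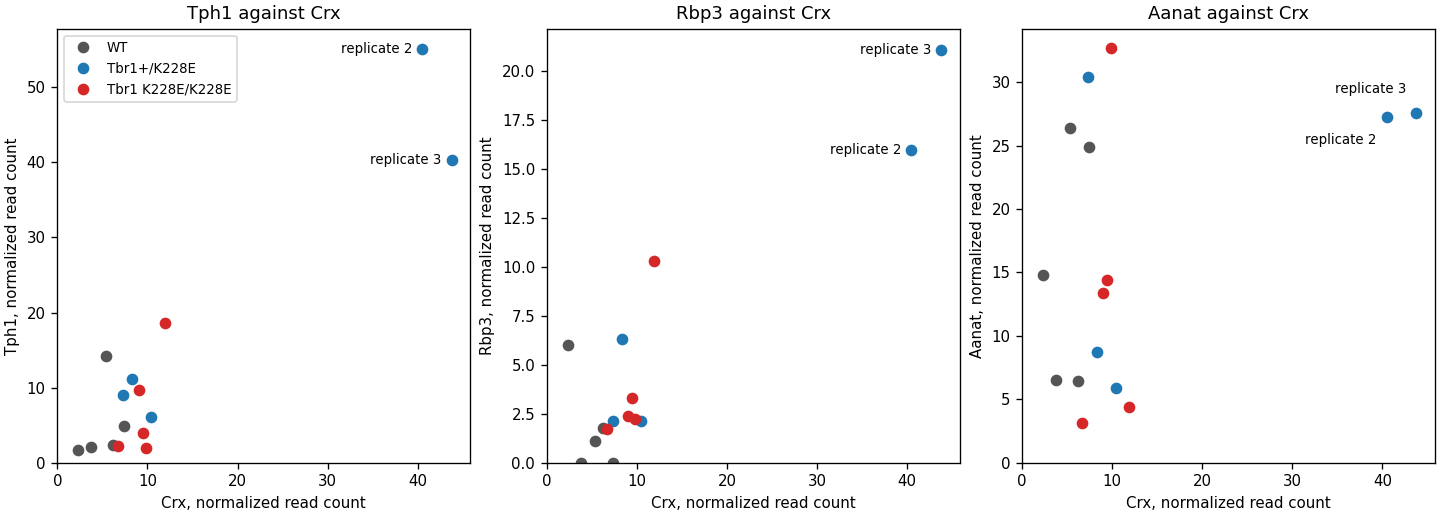
Normalized read counts of *Tph1*, *Rbp3*, and *Aanat* (y axes, linear) against that of *Crx* (x axis, linear) in 15 embryos, each a point colored by genotype, with heterozygous replicates 2 and 3 named. These 2 embryos stand apart for *Tph1* (55.1 and 40.4). They are also the highest for *Rbp3* (15.9 and 21.1, against 10.3 or less in the others), a gene singled out after its values were seen. *Aanat* is as high in embryos with little *Crx*.

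Among the transcription factors of photoreceptors and pinealocytes other than the Otx class, 13 were tested and none passed in any pair of genotypes, with a median log2 difference of 0.05 in heterozygous and -0.00067 in homozygous compared with WT mice. None of 13 genes of serotonin and melatonin synthesis, storage, and breakdown passed (medians -0.10 and -0.03), nor did any of 23 genes of phototransduction and photoreceptor structure (medians -0.05 and -0.03). The median over all tested genes was -0.0021 and -0.0023 in these comparisons. The summed count of all 32 measured phototransduction genes, including those under the filter, was 1111 and 1140 in heterozygous replicates 2 and 3, and it reached 1119 in a WT embryo. No listed gene had an r of at least 0.7 with *Crx* over the 15 embryos, and 0.164% of all tested genes (27) did.

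The same 2 embryos had the lowest mean log2 level of 9 genes of the habenula and subcommissural organ, which lie beside the pineal gland. It was 5.53 and 6.19 in heterozygous replicates 2 and 3, against 6.46 to 7.24 in the other embryos. By summed count, heterozygous replicate 2 was again the lowest (1139), but homozygous replicate 3 (1568) lay below heterozygous replicate 3 (1839). The correlation with this level was -0.64 for *Crx* and -0.71 for *Tph1*, and 0.06 and -0.32 without the 2 embryos. Other lists came close over all embryos, at -0.63 and -0.62 for the thalamic genes and -0.53 and -0.66 for the midbrain genes. Within the habenula and subcommissural organ list, *Tac2* ran the other way (0.37 with *Crx* and 0.52 with *Tph1*). Heterozygous replicate 2 also had the lowest midbrain level (summed count 185), but replicate 3, at 3648, did not stand apart there. The summed choroid plexus count was 22456 and 18258 in these embryos, below the 25422 of heterozygous replicate 1, whose *Crx* was 10.4. The part of these tissues in the levels of *Crx* and *Tph1* was not tested.

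The further genes most like *Crx* were *Zfp277* (r = 0.78), *Hspb9* (0.77), *Glt8d2* (0.76), and *Agmo* (0.76). Of these, *Hspb9* kept its likeness without the 2 high embryos (0.76), whereas *Zfp277* fell to 0.33. The genes most like *Tph1* were *Exosc4* (0.87), *Polr2c* (0.87), *Tedc2* (0.86), *Dio3* (0.86), which encodes the deiodinase that inactivates thyroid hormone, and *Samd1* (0.85). Their r without heterozygous replicates 2 and 3 was 0.71 to 0.84. Of the listed genes, *Bcl11b*, a factor of subcerebral projection neurons (r = 0.73), and *Sox2*, a factor of neural progenitors (0.74), reached 0.7 with *Tph1*, which is 1.39% of 144 against 1.34% of all tested genes. Of the 144 listed genes, 5 had an r of -0.7 or below with *Tph1*, against 1.95% of all tested genes. They were *Chrna3* (-0.76), *Pou4f1* (-0.74), *Prlr* (-0.72), *Foxa2* (-0.71), and *Sox14* (-0.71).

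*Otx2* followed genes of the midbrain, and those of some other lists as well. Its r with the mean log2 level of the 13 midbrain genes was 0.83 over all embryos (rho 0.71) and 0.85 without heterozygous replicate 2 and homozygous replicate 3, which had the least of these genes. Within genotypes, r was 0.97 in WT, 0.94 in heterozygous, and 0.94 in homozygous mice, over 5 embryos each. Other lists came close over all embryos. The r was 0.80 (rho 0.63) with the other bicoid-related homeobox genes and 0.76 (rho 0.52) with the serotonin and melatonin genes. With the thalamic genes r was 0.76, and rho, at 0.80, was above that with the midbrain genes. Of the 13 midbrain genes, 12 had an r of at least 0.7 with *Otx2*. They included *Sox14* (0.93), a factor of midbrain and thalamic GABAergic neurons, *Pax3* (0.87), *En2* (0.84), and *Pax5* (0.83), and the remaining gene, *Foxa1*, had the lowest value of 0.58. The summed midbrain counts of the embryos with the least *Otx2* were 1877 (WT replicate 3), 185 (heterozygous replicate 2), and 974 (homozygous replicate 3), against 3408 or more in all others. With the midbrain level as a covariate, a fit added after the data were seen, the SE of the log2 difference of homozygous from WT mice narrowed from 0.33 to 0.18, and the difference was -0.07.

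The choroid plexus also expresses *Otx2* strongly. The r of *Otx2* with 13 choroid plexus genes was 0.25 over the 15 embryos, and no single gene of the list reached 0.7. Within genotypes it was 0.84 in WT, -0.58 in heterozygous, and 0.43 in homozygous mice, over 5 embryos each. Heterozygous replicate 2 combined one of the highest choroid plexus sums (22456) with an *Otx2* count of 427.

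**Figure D4:**
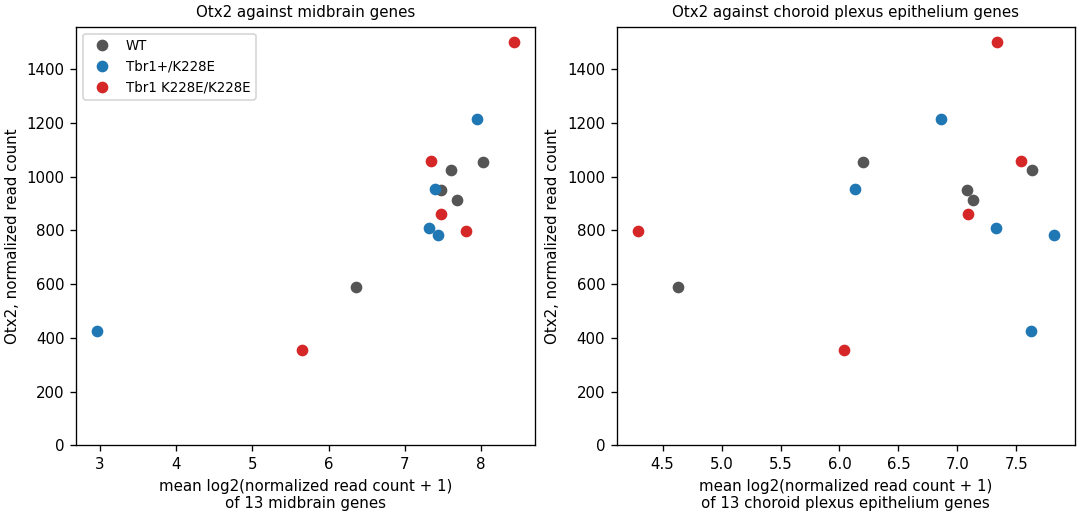
Normalized read count of *Otx2* (y axis, linear) against the mean log2(normalized count + 1) of 13 midbrain genes (left x axis) and of 13 choroid plexus genes (right x axis), with a point for each of 15 embryos colored by genotype. *Otx2* rises with the midbrain genes (r = 0.83) in all genotypes, whereas its r with the choroid plexus genes was 0.25 and differed in sign within genotypes (0.84 in WT and -0.58 in heterozygous mice).

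The genes most like *Otx2* were *Sp5* (r = 0.97), *Lef1* (0.95), *Hs3st3b1* (0.95), *Fzd10* (0.94), and *Barhl2* (0.93), and without the 2 embryos with the least *Otx2* they lay between 0.85 and 0.96. *Lef1* is a nuclear effector, *Fzd10* a receptor, and *Sp5* a target of Wnt signaling, and *Barhl2* is a homeobox gene of the diencephalon. Of the 144 listed genes tested, 32 (22.2%) had an r of at least 0.7 with *Otx2*, against 2.23% of all tested genes. Beside the midbrain genes, they comprised 4 of 8 thalamic genes, namely *Lef1* (0.95), *Barhl2* (0.93), *Lhx9* (0.83), and *Rora* (0.79). They also comprised 4 of 9 genes of the habenula and subcommissural organ, including *Pou4f1* (0.82). Among the other bicoid-related homeobox genes, 4 of 5 did so, namely *Pitx3* (0.76), which is also on the midbrain list, *Gsc2* (0.76), *Dmbx1* (0.74), and *Pitx1* (0.74). The serotonin genes *Ddc* (0.79), *Slc6a4* (0.74), *Gch1* (0.73), and *Tph2* (0.70), the brain counterpart of *Tph1*, also followed *Otx2*, whereas *Tph1* itself ran opposite to it (r = -0.59). The further genes above this level included *Lhx4*, *Isl2*, *Pou4f2*, and *Pcp4*. At -0.7 or below were 6 of the 144 listed genes, against 1.49% of all tested genes. They were *Rlbp1* (-0.82), *Isl1* (-0.79), *Etv1* (-0.78), *Sox2* (-0.78), *Bcl11b* (-0.73), and *Neurod1* (-0.72).

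Of 8 cortical progenitor genes, 2 had an r of at least 0.7 with *Otx1*, and of 7 deep-layer genes none did. The genes most like it were *Dmrta2* (r = 0.89), a factor of cortical progenitors, *Ddx27* (0.88), *Taf2* (0.86), *Ptcd3* (0.83), and *Vangl2* (0.83), a planar cell polarity gene. Without WT replicate 4 and heterozygous replicate 5, the extreme embryos, these values were 0.60 to 0.87. Of the listed genes, 4 of 144 (2.78%, against 0.733% of all tested genes) reached 0.7. They were *Emx2* (0.80) and *Neurog2* (0.76), factors of cortical progenitors, *Lhx2* (0.80), which was on the thalamic list and is also a factor of cortical progenitors, and *Bsx* (0.75). *Hoxb4* (-0.77), *Hoxb5* (-0.74), and *Hoxa5* (-0.71), genes of the hindbrain and spinal cord, ran opposite. These were the 3 of 144 listed genes at -0.7 or below, against 0.951% of all tested genes. The r of *Otx1* was 0.65 with 8 cortical progenitor genes, 0.61 with 7 deep-layer genes, and -0.71 with the Hox genes, which became 0.36, 0.25, and -0.49 without the 2 most extreme embryos of each list. *Otx1* and *Otx2* were not alike (r = -0.09).

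**Figure D5:**
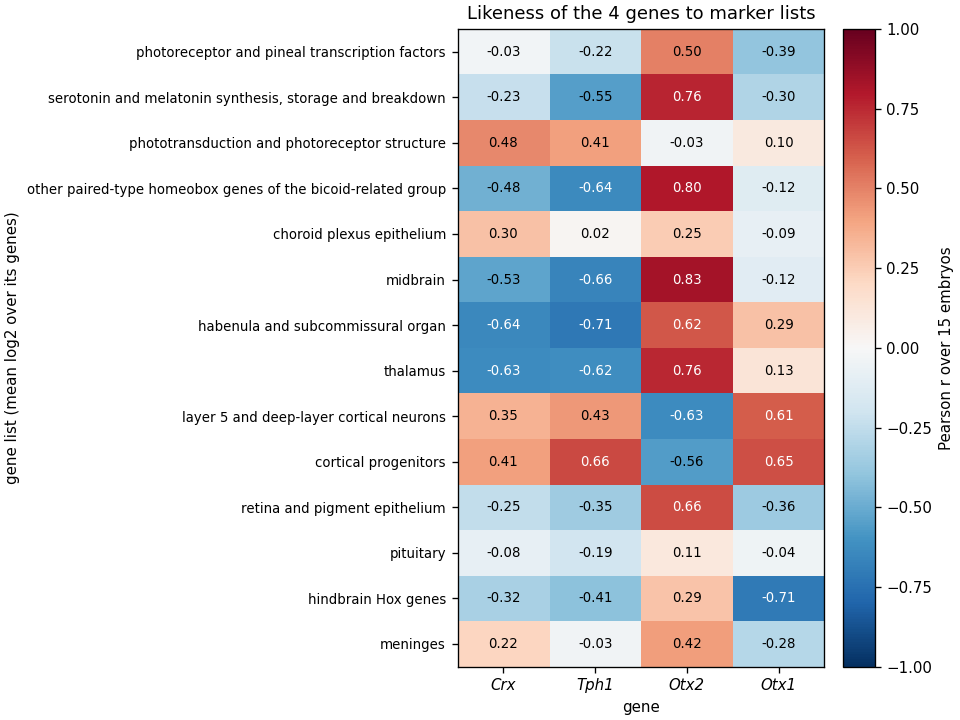
Pearson r over 15 embryos between the log2(normalized count + 1) of each of the 4 genes (x axis) and the mean log2 level of each of 14 gene lists (y axis), with red for positive and blue for negative values. *Otx2* is highest with the midbrain list (0.83), *Otx1* lowest with the Hox list (-0.71), and *Crx* and *Tph1* lowest with the habenula and subcommissural organ list (-0.64 and -0.71). The next lowest are the thalamic list for *Crx* (-0.63) and the midbrain list for *Tph1* (-0.66). For *Otx2* the other bicoid-related homeobox list (0.80), the serotonin and melatonin list (0.76), and the thalamic list (0.76) come close to the midbrain list.

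None of the listed genes passed the adjusted threshold between any genotypes (limma with Benjamini–Hochberg correction). The median log2 difference of the 13 midbrain genes was -0.80 in heterozygous and -0.12 in homozygous compared with WT mice, and that of the 13 choroid plexus genes was 0.59 and -0.09. Larger medians were those of 14 Hox genes (-1.79 and -1.52) and, in homozygous mice, of 10 meningeal genes (0.58 and -1.03). The ranges of the sums of these lists overlapped between the genotypes. The midbrain sums were 1877 to 6640 in WT, 185 to 5496 in heterozygous, and 974 to 7758 in homozygous mice. The 5 measured pituitary genes, of which 3 were tested, summed to 473 in WT replicate 1 and to 62.9 or less in all others.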

How the data were processed

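RNA-Seq libraries of 15 E16.5 embryos were grouped by the genotype in their labels. The authors estimated transcript abundance with Salmon 0.11.2 on GRCm38, summed it to genes, divided it by DESeq2 1.22.2 size factors in R 3.5.3, and deposited a normalized signal (a normalized read count per gene and embryo, not whole reads). Per-embryo depth limits genes of a few reads.

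Of 19475 Ensembl identifiers, 19452 were matched to GENCODE M21. In R 4.3.3, limma 3.58.1 (lmFit, eBayes with a trend) was fitted on log2(value + 1) to all 15 embryos and the 16507 genes whose mean reached 5, with Benjamini–Hochberg correction over all of them. This scale understates changes of low genes. The procedure was tested on simulated data. Single genes were compared by two-sided exact permutation tests. P-values measure the spread between embryos, whose litters are not given in the sources used here.

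The 4 genes and the 14 gene lists were chosen with earlier results of these data known. Named genes are the 4, listed genes that passed or had an absolute r of at least 0.7 with one of them, the 5 genes of highest r for each, and genes overlapping their exons. Others are said to be chosen after their values were seen. The settings varied were the pseudocount (0.1 or 10), the filter (none, or a mean of 50), the scaling, covariates (sex, marker levels), the replicate block, and the embryos fitted (each sex alone, 2 genotypes alone, embryos left out). *Otx1* had no promoter window.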

Additional observations from a re-analysis of the deposited data

Results flagged for a closer look

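*Tph1* in WT mice had an embryo far from the others. WT replicate 3 measured 14.2 normalized counts against 1.69 to 4.91 in the other 4 WT embryos, and its gap to the nearest of them was 0.743 of the whole WT range, above Dixon's critical value of 0.71 for 5 samples. The ratio was taken on normalized counts of a few reads. On the log2 scale used for the differences, this gap is a smaller part of the range. For normally distributed values, the 95% critical value marks about 5% of groups by chance, and 12 groups were examined (4 genes in 3 genotypes). Without this embryo the log2 difference of homozygous from WT mice was 0.82 in place of 0.40. WT replicate 3 also had the lowest *Otx2* (588) and midbrain sum (1877) of the WT embryos, and the part of either in its *Tph1* level was not tested.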

How the results depend on the processing

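The smallest adjusted p of any of the 4 genes in homozygous compared with WT mice was 0.901 over all settings run (limma with Benjamini–Hochberg correction), so none passed under any of them. With a pseudocount of 10, the log2 difference was 0.37 for *Crx* and 0.17 for *Tph1*, against 0.84 and 0.40 with a pseudocount of 1. Leaving out each embryo in turn gave log2 differences of 0.65 to 0.98 for *Crx*, -0.0021 to 0.23 for *Otx1*, -0.32 to 0.20 for *Otx2*, and -0.0055 to 0.82 for *Tph1*. The sign turned for *Otx1* without WT replicate 4 (-0.0021), for *Otx2* without homozygous replicate 3, alone or together with heterozygous replicate 2 (0.20), and for *Tph1* without homozygous replicate 1 (-0.0055). The cause was not tested.

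In heterozygous relative to WT mice, leaving out each embryo gave 1.28 to 1.88 for *Crx*, 1.52 to 2.35 for *Tph1*, -0.03 to 0.21 for *Otx1*, and -0.32 to 0.06 for *Otx2*. Without heterozygous replicates 2 and 3, *Crx* moved from 1.61 to 0.75, *Tph1* from 1.93 to 0.99, and *Otx2* from -0.16 to 0.12. A pseudocount of 10 gave 0.92 for *Crx* and 1.01 for *Tph1*. *Otx1* was 0.44 in males alone and -0.10 in females alone, and *Otx2* was 0.13 with the midbrain level as a covariate. Without heterozygous replicates 2 and 3, 1 gene (*Gm10197*, chosen after its values were seen) passed in place of 0.

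The 21 genes past the threshold in homozygous compared with WT mice became 12 in a fit of these genotypes alone, 11 without heterozygous replicate 2 and homozygous replicate 3, 1 in females alone (*Gm4767*, named after its values were seen), and 0 in males alone (866 genes at an unadjusted p under 0.05 in limma), where fewer embryos were fitted. Leaving out single WT or homozygous embryos gave 12 to 21 genes and leaving out single heterozygous embryos 15 to 22, with 12 without WT replicate 1 or homozygous replicate 3 and 13 without WT replicate 2 or homozygous replicate 4. Embryos that share a number share their sex, and whether they share a litter is not given in the sources used here. The r of their residuals lay between -0.23 and 0.51. With the replicate block 16 genes passed in homozygous compared with WT mice, the log2 differences of the 4 genes stayed as they were, and the SE for *Crx* was 0.39. *Crx* and *Tph1* have too few reads for the filter at a mean of 50, which gave no value for them. The 13 genes that passed between the mutant genotypes became 2 with the replicate block (*Reln* and *Mc4r*), 1 without heterozygous replicates 2 and 3 (*Gm10197*), and 0 without heterozygous replicate 2 and homozygous replicate 3 (464 genes at an unadjusted p under 0.05 in limma), all named after their values were seen. Each of the 10 fits without a single heterozygous or homozygous embryo gave 6 to 8 genes, and the fits without a WT embryo 11 to 17. Each sex alone gave 0 (828 genes in females and 412 in males at an unadjusted p under 0.05 in limma).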
